A study of Nannochloropsis oceanica strain IMET1 with 6 samples.

Results

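The very short genes of the marine oil-storing alga Nannochloropsis oceanica strain IMET1 were described here, taken as all genes whose listed length, the summed length of the exons without introns, was at most 450 bases. They numbered 463 of the 9552 genes of the deposited table (4.85%), and the other 9089 genes are called longer genes. No measured expression value entered this choice, although every gene of the table had a value above 0 in at least 1 library. Listed lengths of the 463 genes ran up to 450 bases with a median of 324, against a median of 1986 bases in the longer genes. The files do not pair gene identifiers with descriptions, so no function is given and most genes are named by position as the authors' table lists it. The sources used here do not give its genome build.

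Messenger RNA was sequenced from 3 libraries of HLM23, a mutant strain in which the gene NO06G03670 is disrupted, and from 3 libraries of its wild type (WT). Both strains were inoculated to an OD750 of 0.1 and grew at 25 °C in 0.2% CO2-enriched air, with 16 h of light at 600 μmol m-2 s-1 and 8 h of dark. Cells were taken on day 3, 1 h before dark. HLM23 is a single mutant strain, and whether replicates of a strain were separate cultures is not stated in the labels. The p-values therefore reflect the variation among these libraries, part of which may be technical. The design asks which transcripts differ in level between these strains.

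In compact genomes such as those of microalgae, short genes typically code for small proteins, among them many ribosomal proteins and small subunits of photosynthetic and respiratory complexes, which tend to be strongly expressed. Short open reading frames are also the hardest to tell from chance, so the shortest gene models of an annotation commonly mix genes for abundant small proteins with models that have little evidence of transcription. Introns are removed from the transcript by splicing and do not count towards the listed length.

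The libraries held 15331673 to 18711316 reads on genes, as implied by the deposited values, of which 473647 to 727703 fell on very short genes. The disrupted gene averaged 944 normalised reads (SD 152) in HLM23 against 1837 (SD 284) in the WT, with 3 libraries each, lower in all 3 mutant libraries than in any of the 3 others. Across all genes the highest Spearman correlation between the strains, 0.977, joined replicate 2 of HLM23 and replicate 2 of the WT, so results that rest on these libraries are also given without them. HLM23 replicate 3 stood apart from the other 5 libraries in the very short genes, with its values given below, and results that rest on it are given with and without it.

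Nearly all very short genes had a listed length that is a whole number of codons. The listed length was a multiple of 3 in 97.6% of the very short genes and in 54.9% of the longer genes, where chance alone makes some lengths a multiple of 3. The share fell with length, from 100% of the 181 genes of up to 300 bases and 96.1% of the 282 genes above 300 and up to 450 bases to 82.8% above 450 and up to 900 bases and 40.7% above 3600 bases. Such lengths are typical of models that hold a coding length without untranslated ends, but no sequence or annotation was examined. Fragments outside the listed exons would not be counted to a gene. The FPKM of the deposited table used the listed length in every very short gene, whereas in 1315 to 1323 longer genes per library it used another length.

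Very short genes yielded few reads each but were, per length, more strongly expressed than longer genes. Their median normalised read count ran from 130 to 150.0 over the 6 libraries, against 557 to 585 in the longer genes. Per kilobase of listed length, with library totals set equal (RPKM, reads per kilobase scaled by the library total), the median was 26.2, 26.5 and 22.7 in HLM23 replicates 1, 2 and 3, and 27.8, 26.2 and 24.4 in WT replicates 1, 2 and 3. In the longer genes the medians were 16.4, 17.6 and 13.7 in HLM23 and 18.4, 17.9 and 17.0 in the WT. The very short genes stood above the longer ones in each of the 6 libraries, at 1.44 to 1.65 times their median. Over the mean of all libraries the ratio was 1.56, with 1.91 for genes of at most 300 bases against all others and 1.52 for genes of at most 600 bases. It was 1.55 among genes that overlap no other gene. The part of gene model ends in these levels was not tested. Among genes above 450 and up to 900 bases the median was 32.7 RPKM in 866 models whose length is a multiple of 3 and 35.6 RPKM in the 180 others. The median of that whole class, 33.5 RPKM, lay above the 27.2 RPKM of the very short genes.

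The level of a very short gene varied more widely than that of a longer one. The lowest 10% of them lay under 0.773 RPKM and the highest 10% above 533 RPKM, a 689-fold range, against 1.25 and 93.1 RPKM in the longer genes, a 74.8-fold range. In the next length class, above 450 and up to 900 bases, these limits were 0.804 and 216 RPKM, a 269-fold range. The low limit of that class was thus near that of the very short genes. The middle of the distribution shows the same spread, with quartiles of 4.70 and 126 RPKM in very short genes and 6.40 and 39.8 RPKM in longer genes. By length class the median did not fall steadily: it was 33.5 RPKM for genes up to 300 bases, 23.2 up to 450, 33.5 up to 900, 23.2 up to 1800, 15.2 up to 3600 and 11.6 above.

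**Figure D1:**
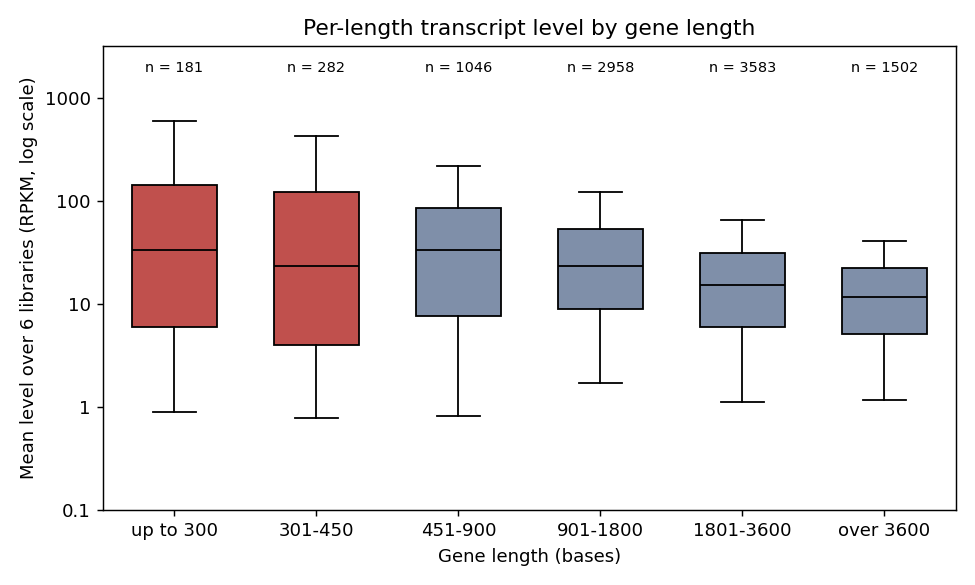
Mean level over the 6 libraries in RPKM on a log axis, by listed gene length in bases. Boxes span the quartiles with the median as a line, whiskers reach to the lowest and highest 10% of genes, and very short genes are red. The boxes of the 2 shortest classes reach from under 6 to over 120 RPKM, and the limit of the highest 10% falls from 589 RPKM up to 300 bases to 40.8 RPKM above 3600 bases.

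Near-silent genes made up a larger share of the very short genes than of the longer ones. No gene of the table, short or long, was listed at 0 in all 6 libraries, so the shares below are of genes read in at least 1 library. Whether genes without reads were left out of the table cannot be told from its values. A mean under 1 normalised read was found in 21 of 463 very short genes (4.54%) and in 79 of 9089 longer genes (0.869%), and a mean under 10 in 78 (16.8%) and 452 (4.97%). In single libraries, 21 to 28 very short genes were listed at 0 in HLM23 and 24 to 33 in the WT, or 5.04% ± 0.87 and 6.26% ± 0.99 (SD, n = 3). The corresponding shares of longer genes were 1.22% ± 0.094 and 1.56% ± 0.19. The strains overlapped in the share of very short genes listed at 0. A count floor in reads weighs more on a short gene, since the same number of transcripts gives fewer reads, whereas the lowest 10% per length, given above, does not use that floor. By that limit the very short genes were not set apart from genes above 450 and up to 900 bases (0.773 and 0.804 RPKM).

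Very abundant genes were also more frequent among the very short genes. The top 1% of all genes by RPKM, those at 1024 RPKM or more, were 96 genes, and 23 of them were very short (4.97% of the very short genes, against 0.803% of the longer genes). The top 5%, at 193 RPKM or more, held 90 very short genes (19.4%, against 4.27% of longer genes). All 463 genes together took 3.09%, 3.15% and 3.89% of the reads in HLM23 replicates 1, 2 and 3 and 3.30%, 3.49% and 3.42% in WT replicates 1, 2 and 3. HLM23 replicate 3 held the highest of these shares and the other 2 HLM23 libraries the lowest, so the strains overlapped.

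**Figure D2:**
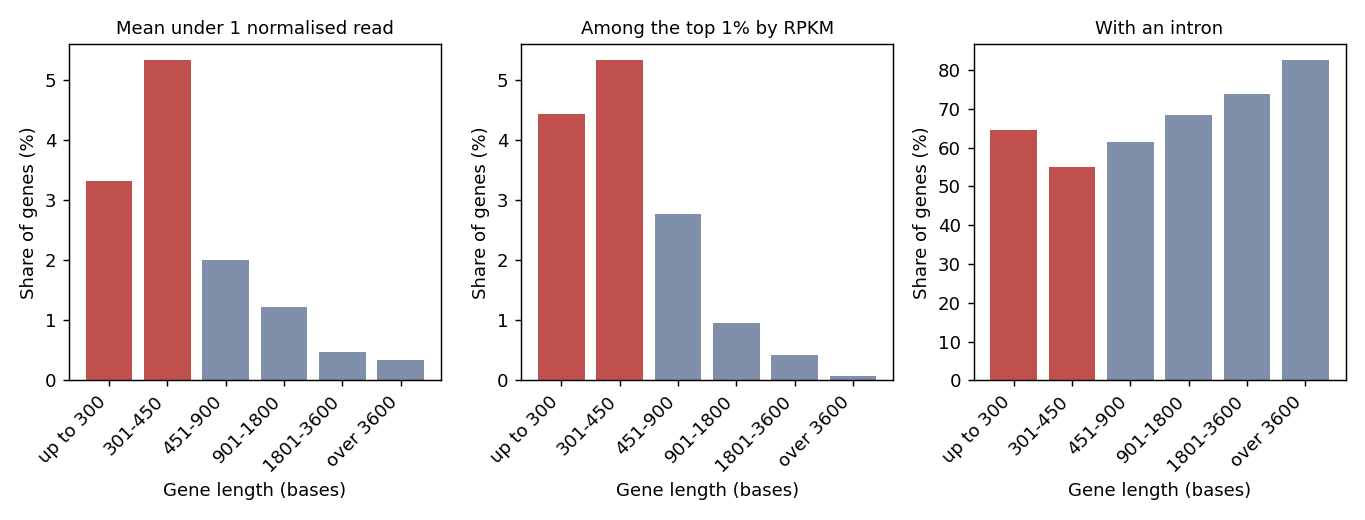
Share of genes in percent, by listed gene length in bases, with very short genes in red. The panels show a mean under 1 normalised read over the 6 libraries, membership of the top 1% by RPKM, and the presence of an intron. Both extremes of expression were most frequent above 300 and up to 450 bases (5.32% in each panel), while introns were least frequent there (55.0%).

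The most abundant very short gene, at 1213318 to 1213909 on chromosome 6 (plus strand, 351 bases in exons and 241 in introns), was the fourth most abundant gene of the table per length, at 8600.4 ± 1170 RPKM (SD over 6 libraries). Its normalised read counts were 49536, 47203 and 70783 in HLM23 and 39963, 47292 and 45349 in the WT. HLM23 replicate 3 was the highest and the strains overlapped, with a log2 fold change of 0.32 ± 0.20 (SE) and a limma adjusted p of 0.26. The next, at 321644 to 321973 on chromosome 11 (minus strand, 330 bases), has no intron and reached 6490.0 ± 879 RPKM. Its counts were 29431, 29538 and 43901 in HLM23 and 31661, 37042 and 40240 in the WT, again with HLM23 replicate 3 highest. The third, at 1494183 to 1495167 on chromosome 3 (plus strand), carries 775 bases of intron and 210 bases in exons and stood at 4314 ± 662 RPKM. Of the 10 most abundant very short genes, at 2285 to 8600.4 RPKM, 9 contain introns, HLM23 replicate 3 was the highest library in all 10, and none was called, with log2 fold changes from -0.10 to 0.32.

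A smaller share of very short genes than of all longer genes had introns, but these took up more of the gene where present. An intron, read as a genomic span longer than the listed length, was present in 272 of 463 very short genes (58.7%) and in 72.1% of longer genes. Where present, introns summed to a median of 324 bases in very short genes and 405 bases in longer genes, so the intron total changed little while the exon total was several times shorter. They made up a median 49.6% of the span of very short genes with introns and 17.8% of that of longer genes with introns. Genes above 450 and up to 900 bases lay between on all 3 values. Introns were present in 61.6% of them, with a median total of 363 bases and 34.6% of the span where present. In 134 very short genes (28.9%) introns were longer than the exons together, against 5.70% of longer genes, and the most was 1473 bases. Introns were more frequent up to 300 bases (64.6%) than above that length (55.0%).

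Very short genes with introns were the more strongly expressed ones. Their median level was 43.5, 47.1 and 42.3 RPKM in HLM23 and 55.9, 51.4 and 52.3 RPKM in the WT. In very short genes without introns it was 8.74, 12.5 and 10.4 RPKM in HLM23 and 10.3, 11.9 and 10.9 RPKM in the WT. The median with introns was the higher one in all 6 libraries, and over the mean of all libraries the medians were 49.1 and 12.1 RPKM. Single genes of the groups overlapped widely, with quartiles of 8.54 and 248 RPKM with introns and 1.97 and 53.3 RPKM without. Among longer genes the same split gave 19.6 and 12.7 RPKM, so very short genes without introns were close to longer genes without introns and those with introns lay above. The extremes divided in the same way: 21 of the 23 very short genes in the top 1% had introns, whereas 13 of the 21 with a mean under 1 read had none. A mean under 1 read was found in 6.81% of the 191 very short genes without introns and in 2.94% of those with introns.

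**Figure D3:**
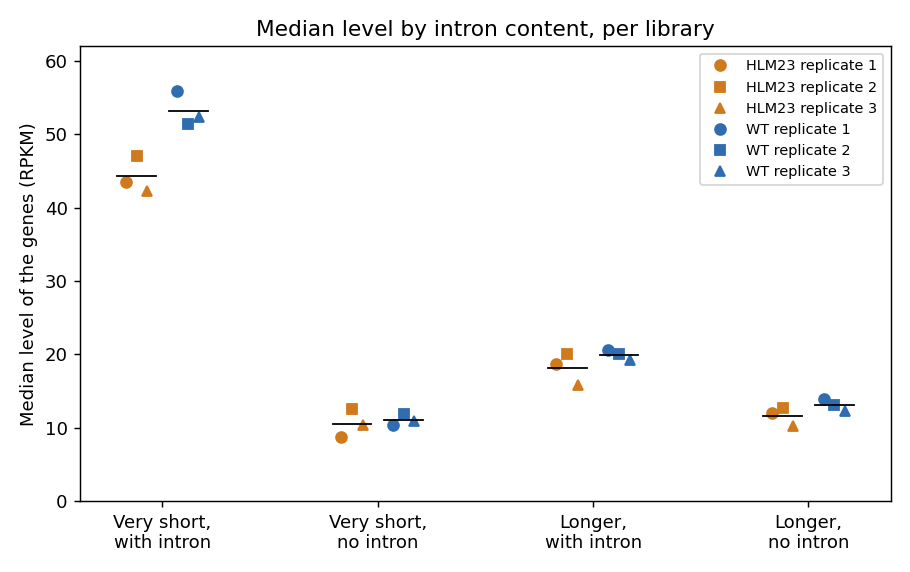
Median level of the genes in RPKM in each library, for very short and longer genes with and without introns. Points are libraries (HLM23 orange, WT blue) and lines the mean of 3 libraries. Very short genes with introns lie at 42.3 to 55.9 RPKM and the other 3 groups at or below 20.6 RPKM.

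RPKM divides by the total of each library, which differs from the scaling by which the deposited counts were made comparable. On the RPKM scale the median of the very short genes with introns lay at 44.3 ± 2.52 in HLM23 and at 53.2 ± 2.37 in the WT (SD, n = 3), with no overlap between the strains. Gene by gene, on the authors' scaling, the median log2 fold change of the 264 of them that were tested was 0.04. This included HLM23 replicate 3, which stood at 0.24 against the mean of all libraries. Without that library, HLM23 replicates 1 and 2 stood at -0.04 and -0.05 against the mean of the libraries left. WT replicates 1, 2 and 3 then stood at -0.001, 0.04 and 0.06. The direction of this shift thus depends on the measure and on HLM23 replicate 3.

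Very short genes lay farther from their neighbours and overlapped them less often. The median distance to the nearest gene was 199 bases, against 56 bases for longer genes, and 24 of 463 (5.18%) overlapped another gene, against 14.1% of longer genes. Of these 24, 22 overlapped a gene on the other strand and 2 a gene on the same strand, and 8 of the 463 lay wholly inside another gene's span. Both values also differed by the kind of listed length in the next class: above 450 and up to 900 bases the median distance was 219.5 bases and the overlap 5.89% where the length was a multiple of 3, and 49.0 bases and 10.6% where it was not. Very short genes whose length is a multiple of 3 had a median distance of 201.5 bases and an overlap of 4.87%. The part of the gene models' ends in these distances was not tested. Strand handling is not stated in the sources used here, so reads of the overlapping genes cannot be told apart between partners.

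Their spread over the 30 chromosomes was uneven. The share of genes that were very short ran from 2.15% on chromosome 23 (4 of 186) and 2.30% on chromosome 14 (7 of 305) to 9.30% on chromosome 29 (16 of 172), 9.36% on chromosome 28 (16 of 171) and 11.8% on chromosome 27 (21 of 178). The 10 chromosomes with the shortest annotated extent held 5.93% and the 10 longest 4.60%, so extent alone does not order them, and chromosome 23 is among the shorter ones. Chromosome ends held no great excess, with 18 very short genes (3.89%) and 3.33% of longer genes within 20 kb of the start of the chromosome or of its last listed gene end. Plus and minus strands were used about equally (243 of 463 on the plus strand).

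In the comparison of HLM23 with the WT, 88 of the 442 very short genes that could be tested differed (19.9%), with 52 higher and 36 lower in HLM23 (11.8% and 8.14%). Over all 9452 genes tested, 28.9% differed, 14.5% higher and 14.3% lower, and among the longer genes 29.3% differed. The next length class, above 450 and up to 900 bases, was close to the very short genes. There 22.0% differed, 12.4% higher and 9.56% lower. Testing used limma on log2 of normalised reads plus 1, with p-values adjusted over all tested genes, called at 0.05, for genes with a mean of at least 1 read. The other 21 very short genes fell under that mean. At an adjusted p under 0.01 by limma, 29 of the 442 were called, against 13.8% of all genes. A change of at least 2-fold was called in 27 genes that were higher (6.11%, against 7.66% of all) and 24 that were lower (5.43%, against 5.24%). All HLM23 libraries stood above all WT libraries in 99 very short genes (22.4%, against 24.2% of all tested), and below them in 64 (14.5%, against 22.8%). Above 450 and up to 900 bases these shares were 22.4% and 15.9%. With all 6 libraries the shortfall against all genes thus lay mainly in small falls, and the share of 2-fold falls was near that of all genes. In the authors' deposited table, 103 of 463 very short genes passed an adjusted p of 0.05, 64 higher and 39 lower, against 31.7% of all genes, and 83 of them were also called here, all in the same direction.

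Over all tested genes together, fold changes of very short genes were not smaller, but their spread between libraries of a strain was larger. The median size of the log2 fold change, whatever its direction, was 0.48 in very short genes and 0.40 in longer genes. The median SD within strains was 0.37 and 0.25 on the log2 scale. The SD fell with read number. With under 10 normalised reads it was 0.95 in very short and 0.92 in longer genes, and 5.26% and 9.92% were called. From 10 to under 50 reads the SD was 0.58 and 0.57, and very short genes were called slightly more often, at 22.2% of 81 against 20.7% of 575. From 50 to under 200 reads it was 0.39 and 0.35, with 25.5% of 98 and 28.8% of 1106 genes called, and from 200 to under 1000 reads 0.28 and 0.24, with 25.0% and 28.4% called. With 1000 reads or more the SD was 0.28 and 0.21, and 14 of 94 very short genes (14.9%) against 34.7% of longer genes were called. The share called thus lay furthest below that of longer genes in the most abundant class. There the median size of the log2 fold change was also smaller, at 0.27 in very short and 0.35 in longer genes. From 10 to under 50 reads it was 0.74 and 0.79, and in the other classes very short genes had the larger median. Very short genes without introns had an SD of 0.43 and those with introns of 0.33, and 41 of 178 and 47 of 264 of them were called. These were 23.0% and 17.8%, against 27.4% of longer genes without introns and 30.1% of those with introns.

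HLM23 replicate 3 differed from the other libraries in the very short genes. Relative to the mean of the 6 libraries, the median very short gene stood at -0.04, -0.05 and 0.25 on the log2 scale in HLM23 replicates 1, 2 and 3 and at -0.06, -0.004 and 0.01 in WT replicates 1, 2 and 3. Longer genes lay between 0.006 and 0.015 in all 6 libraries. By abundance it was 0.46 in very short genes with under 10 reads, 0.10 from 10 and 0.08 from 50 reads, 0.26 from 200 and 0.39 in the 94 genes with 1000 reads or more. Longer genes of the same 5 classes stood at 0.59, 0.56, 0.03, -0.06 and 0.02. Very short genes thus lay above longer genes in that library from 50 reads upwards and below them under 50 reads, most so from 10 to under 50 reads. It was 0.24 in genes with introns and 0.25 in those without. By length it was 0.21 up to 300 bases, 0.33 up to 450 and 0.19 up to 900, and reached -0.11 above 3600 bases. HLM23 replicate 3 was the highest of the 6 libraries in 43.2% of tested very short genes and in 25.6% of longer genes. It is also the deepest library, and the part of depth or RNA quality in the shift was not tested.

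**Figure D4:**
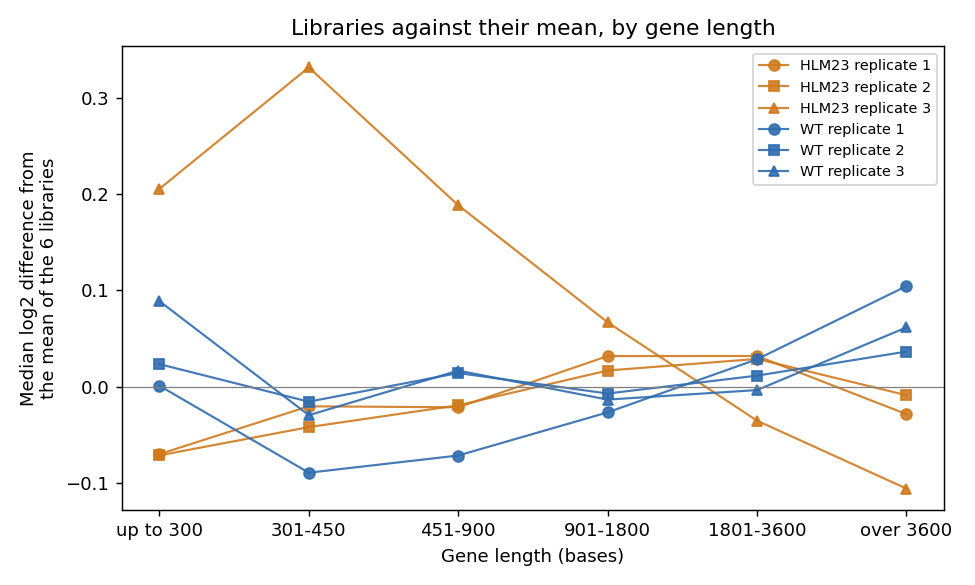
Median log2 difference of each library from the mean of the 6 libraries, by listed gene length in bases, over tested genes. Lines join the classes of 1 library (HLM23 orange, WT blue). HLM23 replicate 3 lies at 0.21, 0.33 and 0.19 in the 3 shortest classes and at -0.11 above 3600 bases, while the other libraries stay between -0.09 and 0.10.

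The direction of the very short genes as a group therefore rested on that library. The median log2 fold change was 0.06 in very short genes and -0.005 in longer genes, and without HLM23 replicate 3 it was -0.05 and 0.008. The calls turned with it, from 52 higher and 36 lower to 32 higher and 53 lower, against 14.1% and 14.6% of all genes tested without that library. Of the 85 calls then made, 58 were among the 88. In the 94 very short genes with 1000 reads or more, 8 higher and 6 lower became 3 higher and 20 lower, and the SD within strains fell from 0.28 to 0.18. Among the 3036 longer genes of that class, 500 higher and 554 lower became 488 higher and 597 lower. The share called went from 14.9% to 24.5% in these very short genes and from 34.7% to 35.7% in these longer genes. Scaling every library to the same total moved the median of longer genes to -0.11 and that of very short genes to -0.05, with 32 higher and 51 lower (10.8% and 17.0% of all genes). After a trend with gene length was taken out of every library, 96 very short genes were called (21.7%, against 29.6% of all), 49 higher and 47 lower.

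Other libraries changed the number of calls more than their direction. Without WT replicate 3, 37 very short genes were called, against 16.3% of all genes tested. Without WT replicate 1 there were 47 calls, against 16.2% of all, and without HLM23 replicate 1 there were 56, against 18.4% of all. Without both replicate 2 libraries 82 very short genes were called, against 25.0% of all, with 48 higher and 34 lower.

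The largest fitted rises were in genes with few reads, whereas over the 52 higher calls 20 genes had means of 200 to under 1000 reads and 8 had 1000 or more. The 8 largest fitted rises, among the 51 genes called higher whose mean was 10 or more and whose strains did not overlap, had means over all libraries of 14.5 to 83.8 reads and at most 11.6 RPKM. HLM23 replicate 3 was the highest library in all 8, and the absence of overlap was part of how they were chosen. NO21G00780, at 263434 to 264284 of chromosome 21 (minus strand), with 387 bases in exons and 464 in introns, was listed at 0 in all 3 WT libraries. It stood at 21.7, 28.3 and 37.0 reads in HLM23 (limma adjusted p = 0.00049), and no ratio is given against a value of 0. NO20G00270 on the plus strand of chromosome 20 (95029 to 95293) is among the 5 genes of the minimum length and has 64 bases of intron. Its counts were 34.8, 8.77 and 38.0 in HLM23 and 0.939, 4.79 and 1.01 in the WT, or 12.1 times the WT mean, a log2 fold change of 3.08 ± 0.70 (SE) with a limma adjusted p of 0.0074. HLM23 replicate 2 was the lowest of the mutant libraries and WT replicate 2 the highest of the WT.

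The third rise had more reads. The gene at 1230807 to 1231393 on chromosome 3 (minus strand, 378 bases) had counts of 116, 85.8 and 155 in HLM23 and 26.3, 27.8 and 8.07 in the WT. The mutant mean was 5.74 times that of the WT, with a log2 fold change of 2.60 ± 0.46 (SE) and a limma adjusted p of 0.0019. The steadiest within HLM23 was the gene at 616212 to 616421 on chromosome 27 (minus strand, 210 bases, no intron), with 32.6, 32.2 and 33.0 reads in HLM23 and 7.51, 7.66 and 10.1 in the WT, with a log2 fold change of 1.84 ± 0.41 (SE) and a limma adjusted p of 0.0067. Its mutant libraries lay within 1 read of each other. The gene at 283573 to 284104 on chromosome 15 (minus strand, 432 bases) rose to 130 ± 10.9 from 38.1 ± 15.0 reads (SD, n = 3), a log2 fold change of 1.81 ± 0.33 (SE) with a limma adjusted p of 0.0023. The other 3 of these 8 genes lie on chromosomes 22, 24 and 26, with log2 fold changes of 1.99 to 2.15. Those on chromosomes 22 and 26 missed the threshold without HLM23 replicate 1 (adjusted p = 0.10 and 0.062, limma) and without HLM23 replicate 3 (adjusted p = 0.094 and 0.057, limma), and the one on chromosome 22 also without WT replicate 1 (adjusted p = 0.11, limma).

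The 8 largest fitted falls, of 32 eligible, reached 14.2% to 32.7% of the WT mean. NO13G00410 on the minus strand of chromosome 13 (135234 to 135572, 339 bases, no intron) had counts of 1.09, 2.92 and 6.0 in HLM23 and 21.6, 14.4 and 34.3 in the WT. HLM23 stood at 14.2% of the WT, a log2 fold change of -2.58 ± 0.61 (SE) with a limma adjusted p of 0.0087, and without WT replicate 3 the adjusted p was 0.058. NO10G00440 on the minus strand of chromosome 10 (149917 to 150135, 219 bases, no intron) had counts of 16.3, 74.1 and 41.0 in HLM23 and 153, 115 and 223 in the WT. The mutant level was 26.8% of the WT, a log2 fold change of -2.07 ± 0.47 (SE) with a limma adjusted p of 0.0072, and without WT replicate 3 the adjusted p was 0.051. In both genes HLM23 replicate 1 was the lowest library and WT replicate 3 the highest.

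The steadiest of the falls was the gene at 372598 to 372920 on chromosome 5 (plus strand, 225 bases in exons and 98 in introns). Its counts were 82.5, 92.6 and 110.0 in HLM23 and 314, 271 and 287 in the WT, or 32.7% of the WT mean, a log2 fold change of -1.61 ± 0.23 (SE) with a limma adjusted p of 0.00074. All libraries of a strain lay close together there. The gene at 252142 to 252543 on chromosome 7 (plus strand, 402 bases, no intron) fell to 42.7 ± 11.6 from 137 ± 24.7 reads (SD, n = 3), a log2 fold change of -1.68 ± 0.31 (SE) with a limma adjusted p of 0.0023. The gene at 676455 to 676979 on chromosome 19 (plus strand, 375 bases) fell to 60.7 ± 21.6 from 254 ± 104 reads (SD, n = 3), a log2 fold change of -2.01 ± 0.38 (SE) with a limma adjusted p of 0.0028. The remaining 3, on chromosomes 4, 7 and 25, had means of at most 50.1 reads in the WT and each missed the threshold without WT replicate 3 (adjusted p = 0.071, 0.14 and 0.073, limma). The one on chromosome 4 also missed it without WT replicate 1 (adjusted p = 0.065), the one on chromosome 25 without both replicate 2 libraries (0.069), and the one on chromosome 7, at 858565 to 858858, without HLM23 replicate 2 (0.068), without HLM23 replicate 3 (0.062) and without both replicate 2 libraries (0.058), all by limma.

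**Figure D5:**
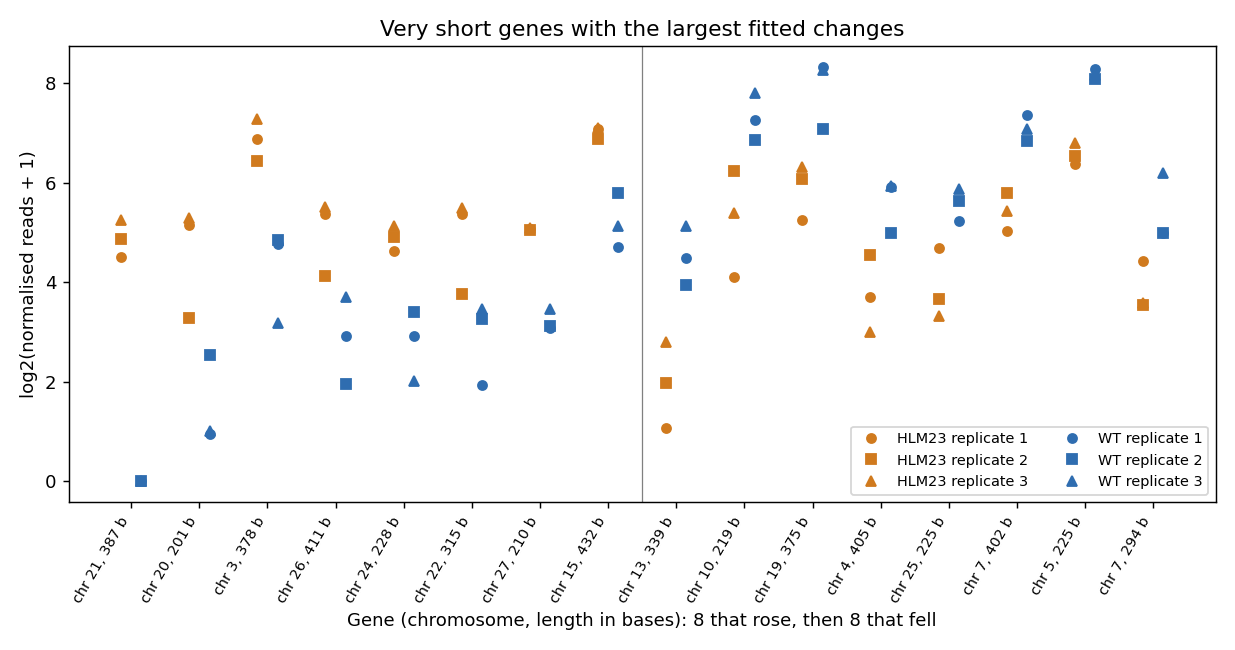
Log2 of normalised reads plus 1 in each library for the 16 very short genes with the largest fitted changes, 8 that rose and 8 that fell, named by chromosome and listed length in bases. HLM23 is orange and the WT blue, and marker shapes give the replicate. The strains do not overlap in any of the 16, as their choice required, and the risen genes lie mostly below 50 reads in both strains.

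Changes at high level were moderate. Of the 94 very short genes with 1000 reads or more, 14 were called, and their examples here were chosen after their values were seen. In the 8 that were higher, HLM23 stood at 1.63 to 1.91 times the WT mean, and HLM23 replicate 3 was the highest library in all 8. The clearest was a gene of the minimum length with 449 bases of intron, at 398031 to 398680 on chromosome 8 (plus strand). Its counts were 3365, 3001 and 3879 in HLM23 and 1579, 1902 and 1870 in the WT, without overlap and with a log2 fold change of 0.93 ± 0.16 (SE) and a limma adjusted p of 0.0015. At 776 ± 240 RPKM (SD over 6 libraries) it was the 138th most abundant gene per length. The deepest of the 6 falls was at 399685 to 400530 on chromosome 22 (417 bases in exons and 429 in introns), with 1454, 1537 and 3033 reads in HLM23 and 7591, 2761 and 6043 in the WT. The strains overlapped through HLM23 replicate 3 and WT replicate 2, and HLM23 stood at 36.7% of the WT mean, a log2 fold change of -1.41 ± 0.35 (SE) with a limma adjusted p of 0.011. The steadiest fall was the gene at 325401 to 325850 on chromosome 13, one of 7 genes of exactly 450 bases, with 1196, 1449 and 1186 reads in HLM23 and 2337, 1999 and 2873 in the WT, with a log2 fold change of -0.90 ± 0.17 (SE) and a limma adjusted p of 0.0030.

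None of the 23 very short genes in the top 1% by RPKM was called by limma, and 3 of them had an unadjusted p under 0.05. Among the 73 longer genes of the top 1%, 11 were called (15.1%), against 28.9% of all genes tested. In these 23 genes HLM23 replicate 3 stood at a median of 0.45 above the mean of the libraries on the log2 scale and was the highest library in 19, while the 73 longer genes stood at 0.38 in that library and it was the highest in 48. All 23 are among the 94 very short genes with 1000 reads or more. In those 94 the share called rose from 14.9% to 24.5% without HLM23 replicate 3. No count without that library is given for the 23, so the absence of calls does not show that they were unchanged.

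The genes of minimum length show the range within the group. Of the 3 listed first, the gene at 15137 to 15337 on chromosome 1 was read at most 2.87 times in any library, and the one at 38746 to 38946 on the same chromosome at 0, 2.92 and 3.00 in HLM23 and 10.3, 8.62 and 9.08 in the WT (limma adjusted p = 0.0496). Neither has an intron, and the other is the abundant gene on chromosome 8 described above. At the other edge, 2 of the 7 genes of 450 bases had means of 339 and 812 reads with log2 fold changes of -0.14 and 0.43. Just outside, 2 of the 4 genes of the next listed length, 3 bases more, had means of 17.3 and 599 reads with log2 fold changes of 0.07 and -0.54; lengths between these are not listed.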

How the data were processed

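Per the submitters' processing notes, fastp, HISAT2, featureCounts and DESeq2 were used, without versions. Settings and strand handling are not stated there. Each library's deposited values are a signal: reads that the authors divided by a size factor, called normalised reads. Below 1000 reads, 100% of values were whole multiples of a library's step (tolerance 0.001 of a read). An automatic test of whole reads did not accept 2 of the columns, whose step is close to 1, so no count model was run. The authors' deposited FPKM served as an alternative level. The authors' deposited log2 fold changes and p-values served as an alternative test.

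RPKM was computed from normalised reads, library total and listed length, and introns as genomic span minus listed length. Genes with a mean of at least 1 were tested with limma 3.58.1 (R 4.3.3, mean-variance trend, no block) on log2(value + 1) in the 6 libraries, with Benjamini-Hochberg adjustment at 0.05 over all tested genes. Fold changes on this scale understate those of low genes. The fit was also run on simulated data, but no outcome is given here and no result rests on it. Genes were named by largest fitted change among calls of mean 10 or more whose strains do not overlap (8 each way, 2 of them by identifier), with the 10 most abundant, 3 of the shortest and 2 genes on either side of the length limit.

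The members, lists and tests were chosen with earlier results of these data known. Alternatives were pseudocounts of 0.1 and 10, no filter, a mean of at least 10, equal library totals, a replicate block, leaving out each library or both replicate 2 libraries, a threshold of 0.01, the authors' values, a length trend removed, length limits of 300 and 600 bases, and genes without overlap. The split by abundance without HLM23 replicate 3 was chosen after seeing the data. None of the identifiers matched the 160 genes of the reference table, and no genome was used, so no sequence is shown. Medians and shares over genes are descriptions without a test.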

Additional observations from a re-analysis of the deposited data

How the results depend on the processing

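The number of very short genes called was 88 as reported and lay between 81 and 103 under the pseudocounts, filters, equal library totals, the replicate block, no overlap, the length trend, the authors' values and without both replicate 2 libraries. Shares over all genes are held for equal totals, the length trend, the authors' values and without both replicate 2 libraries. There 18.6% to 22.2% of very short genes were called, against 25.0% to 31.7% of all genes. Leaving out 1 library gave 37 to 92 calls, with 21 to 58 higher and 16 to 53 lower. These were 8.35% to 20.8% of the very short genes tested, against 16.2% to 28.7% of all genes. Equal library totals gave 32 higher in place of 52. At an adjusted p under 0.01 by limma, 29 of the 442 tested were called (15 higher, 14 lower), against 13.8% of all genes. Genes of at most 300 bases held 31 calls in 175 tested (16 higher, 15 lower), or 17.7% against 28.9% of all genes. Those of at most 600 bases held 143 (83 higher, 60 lower), given here without a share of the genes tested. These counts differ from 88 as fewer or more genes are then included. With genes of at most 300 bases the level ratio was 1.91 and the share with introns 64.6%. The median log2 fold change of very short genes ran from -0.05 to 0.11 with 1 library left out and was -0.02 for at most 300 bases. The spread of the short-minus-longer medians between libraries of a strain was 0.13, or 0.03 without HLM23 replicate 3 (a value added after seeing the data). The medians with and without that library, 0.06 and -0.05, were both smaller in size than 0.13. The 0.03 was obtained by leaving out the same library, so it cannot judge the turn to -0.05. The 16 genes described as risen or fallen kept their direction in all 256 values, and 20 values, in 7 genes, missed their threshold. With the replicate block 89 genes were called, 49 higher and 40 lower, of which 77 were among the 88. The share of all genes called with the block is not given here. Nothing shows that equal numbers mark paired libraries: same-numbered libraries had correlations of -0.07, -0.11 and 0.15 in their deviations from the strain means. With under 10 reads, 3 of 57 tested very short genes (5.26%) and 37 of 373 longer genes (9.92%) were called.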

Other observations

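Very short genes had a very short neighbour more often than longer genes did. Of the 463, 87 (18.8%) had another very short gene as the next listed gene on at least 1 side, against 8.92% of longer genes. Above 450 and up to 900 bases the share was 12.4%. Of the stretches of very short genes, 376 held a single gene, 39 held 2 and 3 held 3. The runs of 3 lie at 551010 to 554324 on chromosome 6, 235665 to 238214 on chromosome 19 and 412220 to 415216 on chromosome 27. In the run on chromosome 6 the first 2 genes had means under 10 reads, and the third averaged 57.0 reads (SD 21.9) in HLM23 against 22.8 (SD 8.49) in the WT, with 3 libraries each and a limma adjusted p of 0.043. In the run on chromosome 27 the first gene was listed at 0 in 5 of 6 libraries and the other 2 had means under 15 reads. In that on chromosome 19 the middle gene averaged 176 reads (SD 30.1) in HLM23 against 116 (SD 29.0) in the WT, with a limma adjusted p of 0.10, between neighbours of at most 16.0 reads in any library.

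The gene next to the disrupted NO06G03670 on its right-hand side is itself very short. It lies on the plus strand of chromosome 6 at 1015542 to 1015796, has 255 bases and no intron, and starts 1810 bases beyond the end of NO06G03670. Its counts were 110, 132 and 150 in HLM23 and 81.7, 83.4 and 89.8 in the WT. All 3 mutant libraries lay above all WT libraries, at 1.54 times the WT mean, but the difference missed the threshold (log2 fold change 0.60 ± 0.26 SE, limma adjusted p = 0.096).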
